A study of Mus musculus with 2 samples.

Results

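The genes described here encode the coats, cargo receptors, SNAREs and tethers that move proteins between the endoplasmic reticulum (ER) and the Golgi. They were taken as a list of 44 genes by symbol, and every probe set whose platform annotation names one of them was read. This gave 94 of the 45101 probe sets on each array, for 43 of the 44 genes. A gene was represented by its brightest probe set of its own and was kept if that probe set reached the median level of the array. After this filter 42 of the 44 genes remained among 11848 genes in all. The expression of Tmed1 was not analysed here, and Tmed2 is described apart because its bright probe sets also name a predicted gene.

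The study compared pancreas RNA of male C57BL/6J mice, an inbred strain, aged 10 weeks. The control group was born to mothers on a control diet in pregnancy, and the methionine-deficient group to mothers whose diet in pregnancy was deficient in methionine, an essential amino acid that also supplies methyl groups. All offspring went onto control diet from weaning at 3 weeks and were not treated themselves. The RNA of each group was pooled and put on 1 array, so n = 1 array per group and the difference has no replicate check. How many mice went into a pool is not stated in the labels. The values are the authors' linear intensities, and each difference is the log2 of the methionine-deficient value minus that of the control value, each after adding 1. No test and no p-value can be given with 1 array per group. As a measure of error, the probe-set spread is quoted, a robust SD for a single probe set's log2 difference. It comes from how far probe sets that read 1 gene disagree within these 2 arrays. It was 0.18 in the brightest of 5 level bins and 0.30, 0.46, 0.61 and 0.78 in the bins below, and it holds neither the variation between mice nor that between arrays. In such a tissue sample, fewer cells of a type and less RNA per cell cannot be told apart.

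Proteins leave the ER in vesicles coated by COPII and return from the Golgi in vesicles coated by COPI. The small GTPase Sar1 recruits the inner COPII coat of Sec23 and Sec24, on which Sec13 and Sec31 build an outer cage, while Arf1 recruits the coatomer complex of COPI. Pancreatic acinar cells export digestive enzymes in large amounts and depend on this traffic. Part of the machinery is known to be induced when unfolded proteins gather in the ER, through factors such as XBP1 and ATF6 that bind ACGTG-containing elements in DNA.

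Because the members share a pathway with known regulatory elements, the bases upstream of their transcription starts were read from RefSeq (build GRCm38.p6). For 37 of the 44 members 43 windows of 250 bases were matched, some genes having several starts. The core of the unfolded protein response element, TGACGTG, was searched on both strands and found in the windows of 5 members. These were Sec16b and Sec24d of the ER exit coat, Arf1 and Copb1 of the COPI coat, and the retrieval receptor gene Kdelr3. The sites are shown so that their surroundings can be compared, each on the strand that reads the core, with the core in capitals and 11 bases on either side.

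Sec16b, chr1:157506741-157506769, plus strand: ttctgtgtggcTGACGTGgcacggcagtt
Sec24d, chr3:123267459-123267487, plus strand: gcccgggcgccTGACGTGgcactagcaac
Copb1, chr7:114254690-114254718, plus strand: aagtccttggcTGACGTGgaagggggcgg
Arf1, chr11:59228229-59228257, minus strand: gcggcaggcgcTGACGTGgctgccgtcag
Kdelr3, chr15:79516368-79516396, minus strand: tggccgcgcggTGACGTGgcggggcggcc

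In all 5 sites the base after the core is G, which gives the longer form TGACGTGG. This form was looked at after the sites were seen. The core lay from 26 to 20 bases before the start in Sec24d, 27 to 21 in Copb1, 29 to 23 in Kdelr3, 44 to 38 in Sec16b and 84 to 78 in 1 of the Arf1 windows. The 7-base core occurred in 5 of 43 member windows (11.6%), in 2.40% of the 12222 windows of genes past the level filter and in 1.65% of all 32851 windows. TGACGTGG occurred in the same 5 member windows, against 0.93% of windows of genes past the filter and 0.56% of all. The shorter run CCACG, which ends the ER stress element and overlaps TGACGTGG on the opposite strand, was in 27 of 43 member windows (62.8%), against 40.1% of windows past the filter and 28.3% of all. The complete ER stress element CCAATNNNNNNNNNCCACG was in 0 of the 43 and in 0.11% of all windows. The CCAAT box alone was in 17 of the 43 (39.5%) and in 33.8% of all. These are matches of letters only.

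Of the 5 genes with a core site, 4 were lower in the methionine-deficient pool and Arf1 was higher. This is near the share of all members, 34 of 42, where 50.0% of all genes were lower. A link between site and direction was not tested. The windows of Copb1 and Kdelr3 are given in full, with the site in capitals. That of Sec23a, the member with the largest difference, is given beside them and holds neither TGACGTG nor CCACG nor CCAAT in its 250 bases.

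Copb1, chr7:114254681-114254930, minus strand: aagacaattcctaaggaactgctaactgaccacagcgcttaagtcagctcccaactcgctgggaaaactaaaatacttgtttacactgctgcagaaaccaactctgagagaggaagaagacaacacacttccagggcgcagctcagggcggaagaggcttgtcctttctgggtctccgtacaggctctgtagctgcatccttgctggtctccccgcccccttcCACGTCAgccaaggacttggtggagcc
Kdelr3, chr15:79516158-79516407, plus strand: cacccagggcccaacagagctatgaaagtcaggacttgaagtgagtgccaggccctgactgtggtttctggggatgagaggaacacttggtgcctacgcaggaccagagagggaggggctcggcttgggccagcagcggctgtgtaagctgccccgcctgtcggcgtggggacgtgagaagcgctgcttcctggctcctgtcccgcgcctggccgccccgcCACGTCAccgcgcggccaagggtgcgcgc
Sec23a, chr12:59012018-59012267, minus strand: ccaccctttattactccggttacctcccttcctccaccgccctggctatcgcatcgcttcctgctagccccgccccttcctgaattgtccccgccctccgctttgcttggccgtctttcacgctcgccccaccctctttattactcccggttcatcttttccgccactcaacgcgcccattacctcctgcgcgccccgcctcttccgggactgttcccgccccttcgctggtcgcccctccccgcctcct

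Most members were lower in the methionine-deficient pool, by small amounts. Of the 42 members 34 were lower and 8 higher, where 50.0% of the 11848 genes were lower. The members' median log2 difference was -0.11, against 0.00 for all genes (-8e-06). The brightest level bin held 38 of the 42 members. There 30 of 38 were lower with a median of -0.09, against 55.3% of the 2864 genes of that bin with a median of -0.02. No member differed by 2-fold, where 2.8% of all genes were at least 2-fold lower and 3.87% at least 2-fold higher (332 and 459 genes). In the brightest bin, which holds most members, such differences were rare, with 4 of the 2864 genes at least 2-fold lower and 8 higher. Scaled to the poly-A spike-in controls, which were 0.18 higher in the methionine-deficient pool, the median of all genes was -0.18, 517 genes were at least 2-fold lower and 294 higher, and 42 of 42 members and 68.8% of all genes were below 0. That scaling subtracts the same amount from every gene. At 1.5-fold 2 members were lower, Sec23a and Sec16b, against 9.0% of all genes, and 0 members were higher, against 10.4%. Both lie in dimmer bins, and in the brightest bin 34 of the 2864 genes were at least 1.5-fold lower and 35 higher. Differences larger than the probe-set spread of their level numbered 13 among the 42 members, all of them lower, where 16.8% of all genes were lower and 17.1% higher by more than their spread. In the brightest bin these were 11 of 38 members, against 20.8% of the bin's genes lower and 15.0% higher.

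**Figure D1:**
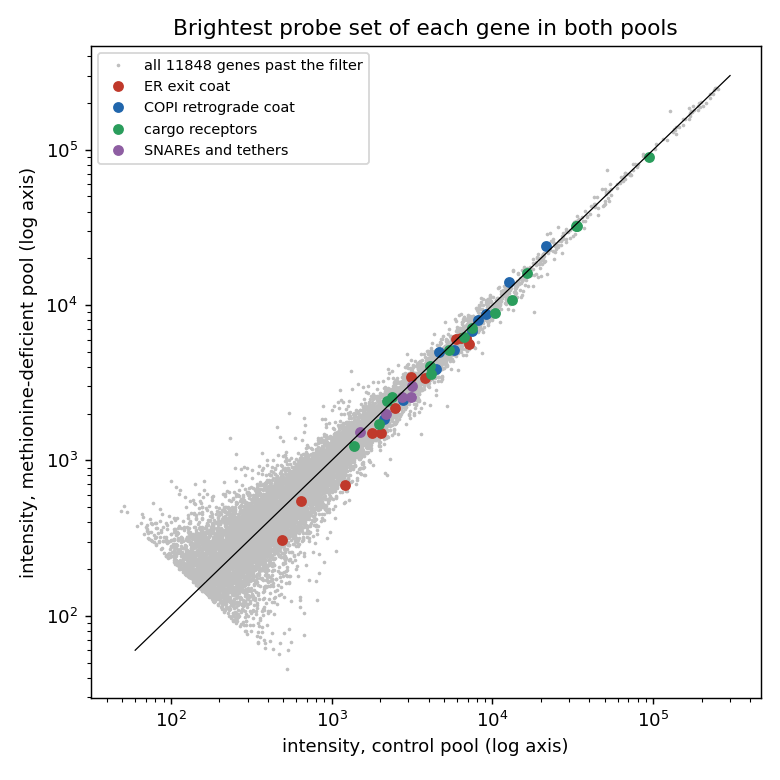
Intensity of the brightest probe set in the control pool (horizontal, log axis) against the methionine-deficient pool (vertical, log axis) for all 11848 genes past the filter (grey) and the members by role (colours). The line marks equal values, and the members lie close to it, 34 of 42 below it, with Sec23a and Sec16b farthest under it.

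The ER exit coat, which comprises Sec16, Sar1, Sec23, Sec24, Sec13 and Sec31 genes, was the lowest of the 4 role groups by its median. All 12 genes passed the filter, 10 were lower, and the median log2 difference was -0.21, with a range from -0.80 to 0.15. The 8 genes of the inner and outer coat proper were all lower in their brightest probe sets, with a median of -0.24, except that Sec23b was at 0.003 with quantile scaling, and Sec24a and Sec24c were at 0.42 and 0.72 with the mean over probe sets. Differences larger than the probe-set spread were found in 6 of the 12, all lower, beside the 16.8% of all genes given above. In the brightest bin these were 4 of 9, against 20.8% of the bin's genes.

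Sec23a and Sec23b encode alternative forms of the inner coat protein that switches off Sar1. Sec23a read at an intensity of 1216 (control) and 696 (methionine-deficient). This 1.75-fold lower value was the largest difference of any member (log2 difference -0.80, probe-set spread 0.30) and rests on a single probe set. Sec23b was close in both pools, at 6329 and 6156 (log2 difference -0.04, probe-set spread 0.18).

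Sec24 proteins bind the sorting signals of cargo, and all 4 paralogues were lower in their brightest probe sets. Sec24c had 2012 (control) and 1502 (methionine-deficient), a log2 difference of -0.42 that exceeded its spread of 0.18. Sec24a had 2475 and 2170, and Sec24d had 3786 and 3401, with log2 differences of -0.19 and -0.15. Sec24b had 646 and 550 (log2 difference -0.23, within its spread of 0.46), and its other probe set past the filter gave 0.01. Sec24c and Sec24a each have a further probe set below the level filter that was higher in the methionine-deficient pool, and with the mean over probe sets these genes were at 0.72 and 0.42.

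The outer cage genes were both lower by more than the spread. Sec13, whose product is also part of the nuclear pore, read 7165 and 5594, a 1.28-fold lower value (log2 difference -0.36, probe-set spread 0.18). Sec31a, the partner of Sec13 in the cage, had 1782 and 1492 (log2 difference -0.26). Each was read by a single probe set.

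Of the genes that start coat assembly, Sec16b differed most. Sec16 proteins organise ER exit sites, and Sec16b had 492 (control) and 309 (methionine-deficient) (log2 difference -0.67, probe-set spread 0.46). Its larger relative Sec16a has no settled direction. The brightest Sec16a probe set had 3111 and 3455 (log2 difference 0.15), while the other had a difference of -0.35. The Sar1 GTPase genes differed by less than the spread of 0.18. Sar1a had 6794 and 6144 in its brightest probe set, and its 2 probe sets gave -0.14 and -0.14. Sar1b, whose loss impairs chylomicron export in humans, had 5913 and 6078 (log2 difference 0.04).

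**Figure D2:**
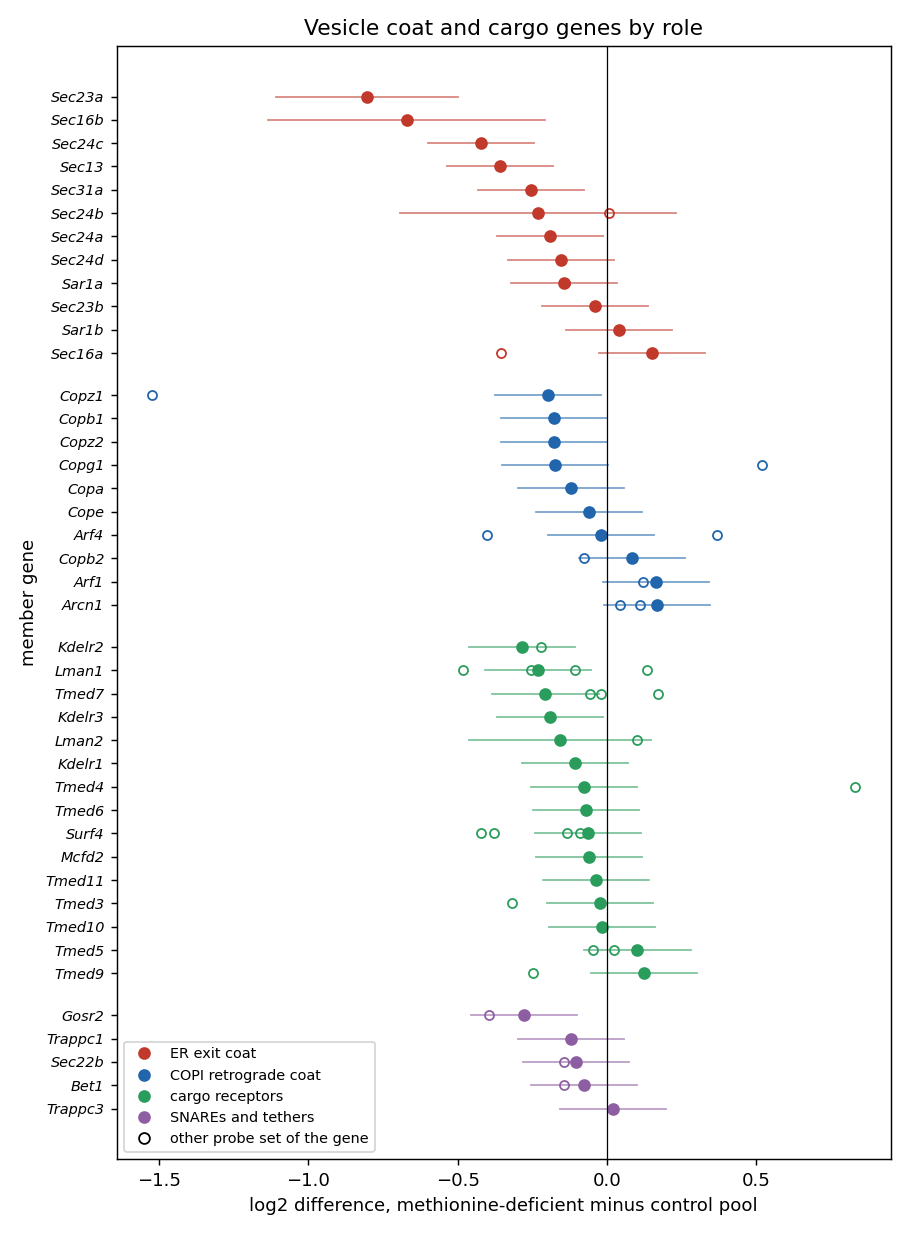
Log2 difference, methionine-deficient minus control pool (horizontal), for each of the 42 members past the filter, grouped by role. Filled points are brightest probe sets with bars of 1 probe-set spread, and open points are other probe sets of the gene past the filter. Most red ER exit points lie left of 0. Open points far from their filled points include those of Sec16a, Copz1, Copg1, Arf4 and Tmed4.

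The COPI coat, which carries retrograde traffic, was lower by less and was split. Of its 10 genes 7 were lower and 3 higher, and the median log2 difference was -0.09, with a range from -0.20 to 0.17. Of the 8 coatomer subunit genes 6 were lower, with a median of -0.15. Copz1 and, at the very limit, Copb1 were lower by more than the spread of 0.18. All 10 genes lie in the brightest level bin, where 55.3% of genes were lower, 20.8% by more than the spread.

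Among coatomer subunits, Copb1 (beta subunit) had 2103 (control) and 1859 (methionine-deficient), a log2 difference of -0.18. Copg1 (gamma) had 2763 and 2449 (-0.17), but another of its probe sets was higher, at 0.52. Copa (alpha) had 7446 and 6852 (log2 difference -0.12), and Cope (epsilon) had 9090 and 8721 (-0.06). The zeta subunit genes were alike in their brightest probe sets, Copz1 at 4472 and 3904 (-0.20) and Copz2 at 5792 and 5122 (-0.18). A dimmer Copz1 probe set gave -1.52, and its size is not shared by the brighter one. Copb2 (beta prime) had 4681 and 4962, and its 2 probe sets gave 0.08 and -0.08.

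Arcn1, the delta subunit, and Arf1, the GTPase that brings coatomer to the membrane, went the other way. Arcn1 had 12611 (control) and 14158 (methionine-deficient), and all 3 of its probe sets were higher, with log2 differences from 0.04 to 0.17. Arf1 had 21533 and 24153, and both of its probe sets past the filter were higher, at 0.12 and 0.17. These were the members whose several probe sets were all higher, and none of those differences exceeded its spread. With the spike-in scaling both genes were at -0.01, and with the mean over probe sets, dim ones included, Arf1 was at -0.27. Arf4, a related Golgi GTPase, had 8100 and 7990 (log2 difference -0.02), with 3 probe sets ranging from -0.40 to 0.37, so its direction is not settled.

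Set against each other, the ER exit coat was lower than the COPI coat by 0.12 between the medians on the log2 scale (difference of medians -0.12). All 10 COPI genes lie in the brightest level bin, but 3 ER exit genes, Sec23a, Sec16b and Sec24b, lie in dimmer bins with more noise. Within the brightest bin the ER exit median over 9 genes was -0.15 and the gap to COPI was -0.06. With the mean over all probe sets of a gene the gap was -0.02. Counted by probe sets past the filter, 12 of 15 were lower for the ER exit coat and 10 of 18 for the COPI coat, against 49.2% of all 22519 probe sets past it. That share spans all levels. Of the genes of the brightest bin, where most of these probe sets lie, 55.3% were lower. The other probe sets of COPI genes, leaving out the brightest, had 3 of 8 values lower and a median of 0.08. Scaling to array medians or spike-ins moves both coats alike and cannot change the gap, and removing the filter left it at -0.12. The other settings gave gaps from -0.14 to -0.02.

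**Figure D3:**
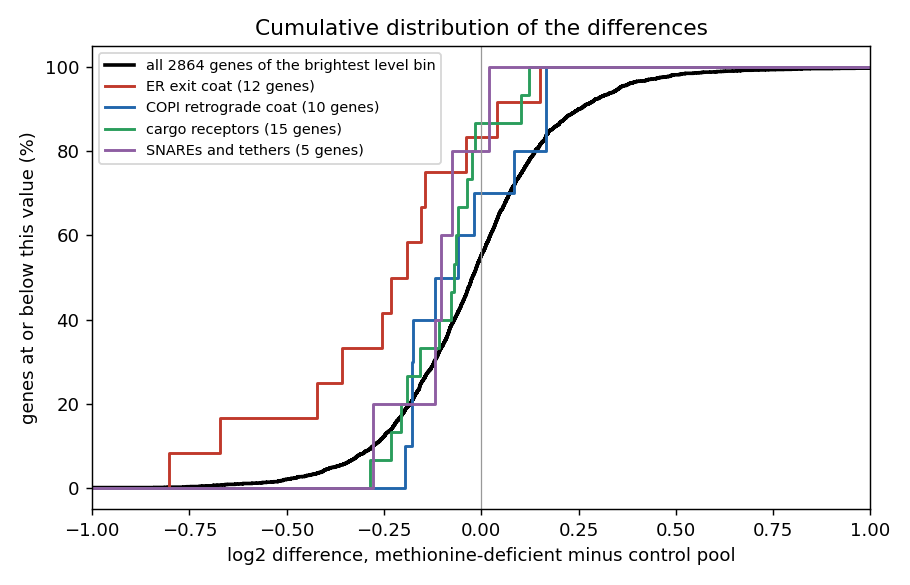
Share of genes (vertical, %) at or below each log2 difference, methionine-deficient minus control pool (horizontal), for the 4 role groups and for all 2864 genes of the brightest level bin (black). The red ER exit curve runs left of the black one, with 10 of 12 genes below 0, while the COPI curve meets the black one at its upper end. The role curves also hold genes of dimmer bins with a wider spread, namely Sec23a, Sec16b and Sec24b of the ER exit coat and the cargo receptor gene Lman2.

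**Figure D4:**
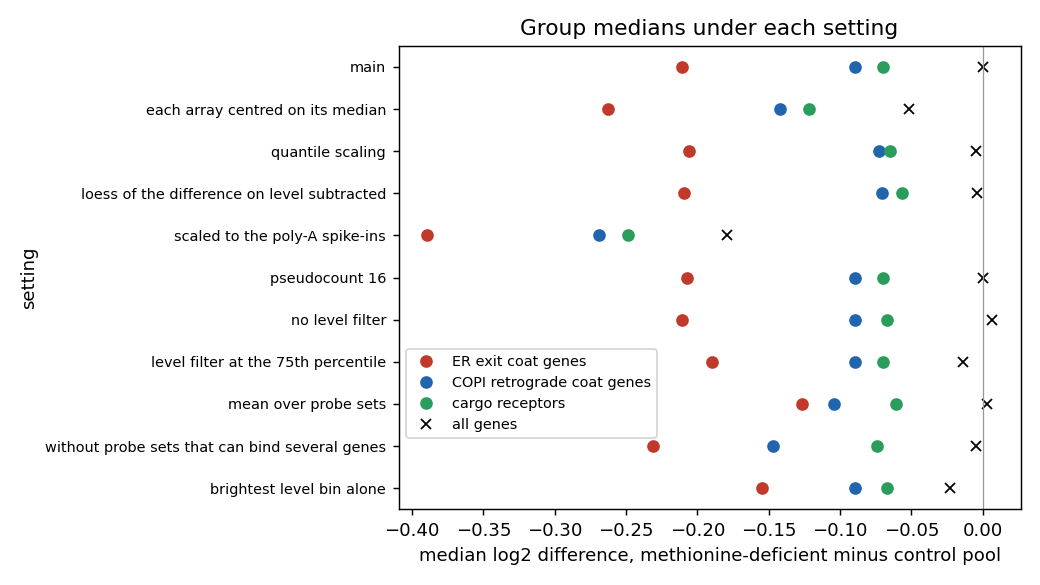
Median log2 difference (horizontal) of the ER exit coat, the COPI coat, the cargo receptors and all genes (crosses) under each setting (vertical). The ER exit median lies left of the COPI median in each row, with a gap of -0.12 in the top row and -0.02 with the mean over probe sets.

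Cargo receptors link soluble proteins inside the ER or Golgi to the coats outside. Of the 15 past the filter 13 were lower, with a median log2 difference of -0.07 and a range from -0.29 to 0.12. By more than the spread 4 were lower, against 16.8% of all genes and 20.8% of those of the brightest bin. The KDEL receptors, which return escaped ER chaperones through COPI vesicles, were lower in all 3 genes, with a median of -0.19. Kdelr2 had 13200 (control) and 10827 (methionine-deficient), and its 2 probe sets gave -0.29 and -0.22. Kdelr3 had 1956 and 1712 (log2 difference -0.19), and Kdelr1 had 6691 and 6206 (log2 difference -0.11, within the spread of 0.18).

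The lectin Lman1 (ERGIC-53), which with Mcfd2 carries coagulation factors V and VIII out of the ER, had 10436 and 8891 in its brightest probe set (log2 difference -0.23). Of its 5 probe sets 4 were lower, with differences from -0.48 to 0.14. Its partner Mcfd2 had 33684 and 32341 (log2 difference -0.06), less than the spread. Lman2, another lectin of the early secretory pathway, had 1371 and 1229 (-0.16), with 0.10 in its other probe set. Surf4, a membrane receptor for secreted soluble proteins, was lower in 5 of 5 probe sets, from -0.42 to -0.06. Its brightest, at 7457 and 7135, gave the smallest of these 5 differences.

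The p24 proteins, encoded by the Tmed genes, sort GPI-anchored proteins into COPII vesicles and cycle back in COPI vesicles. Of 8 Tmed genes past the filter 6 were lower, with a median of -0.03. Tmed6 had 93720 (control) and 89283 (methionine-deficient) (log2 difference -0.07), and Tmed11 had 32993 and 32147 (-0.04). Tmed7 had 4136 and 3585 (log2 difference -0.21), the only one of the family past the spread of 0.18, and its 4 probe sets ranged from -0.21 to 0.17. Tmed3 had 16279 and 16003, and Tmed10 had 4087 and 4039, with log2 differences of -0.02 and -0.02. Tmed4 had 5396 and 5112 (-0.08), beside 0.83 in a dimmer probe set. Tmed5 and Tmed9 were higher in their brightest probe sets, at 0.10 and 0.12, and each had a probe set on the other side, at -0.05 and -0.25.

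For Tmed2 and Tmed10 most probe sets also name another locus (Gm10698 and Tmed10-ps) and can read either transcript. The 6 shared with Tmed2 had 5 lower values and a median of -0.08, and the 4 shared with Tmed10 had 1 lower value and a median of 0.05. The brightest shared Tmed2 probe set had 48364 and 48219. The probe set that names Tmed2 alone lay below the filter, at 103 and 123.

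SNAREs and tethers bring vesicles to their target membrane. Of the 5 members 4 were lower, with a median log2 difference of -0.10. Gosr2, a SNARE of the Golgi, had 3123 (control) and 2577 (methionine-deficient), and its 2 probe sets gave -0.28 and -0.40. Sec22b, a SNARE that cycles between ER and Golgi, had 2746 and 2555, and Bet1, its partner in fusion, had 3166 and 3005. Each was lower in both probe sets, with log2 differences from -0.15 to -0.08. The TRAPP tether genes Trappc1 (2175 and 2002, log2 difference -0.12) and Trappc3 (1494 and 1515, 0.02) differed by less than the spread.

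Probe sets of the same gene were compared across the members. Of the 21 members with several probe sets past the filter, 8 were lower in all of them, 2 were higher in all, and 11 were mixed. The same count was not made over all genes, so these numbers have no background here. The 32 probe sets that were not the brightest of their gene had 21 lower values and a median of -0.10. Among these the SNAREs and tethers were lower in 3 of 3, the cargo receptors in 13 of 18, the ER exit coat in 2 of 3 and the COPI coat in 3 of 8. Of all probe sets past the filter, which span all levels, 49.2% were lower.

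A further list of 59 early secretory pathway genes outside the members was read in the same way. Of the 54 past the filter 28 were lower and 26 higher, with a median of -0.03, so this wider list lay near the share of all genes. The lowest were Bnip1, a SNARE of retrograde transport (540 and 256, log2 difference -1.07, probe-set spread 0.46), Arfgap1, which acts on Arf1 (1741 and 979, -0.83), and Nbas, a subunit of the tether that receives COPI vesicles at the ER (2889 and 1708, -0.76). The highest were the TRAPP genes Trappc6a (0.51) and Trappc13 (0.51), and Zw10, a subunit of the same tether as Nbas (1378 and 1935, 0.49). For Trappc13 the other probe sets were lower, down to -1.04. Subunits of the ER tether thus had differences in both directions.

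The tissue label was checked on marker genes. Of 8 acinar markers 7 passed the filter, with a median of -0.06 and a summed intensity of 771748 (control) and 763316 (methionine-deficient). That sum is carried by digestive enzymes among the brightest probe sets of the arrays. The acinar transcription factor genes Ptf1a (15390 and 12350, log2 difference -0.32) and Rbpjl (4659 and 3950, -0.24) were both lower by more than the spread of 0.18. The third such gene, Bhlha15 (11831 and 13260, 0.16), was higher by less than it in its brightest probe set. Its other probe set past the filter was lower, at -0.29, so its direction is not settled. The part of these 3 genes in the lower coat genes was not tested. B and plasma cell markers were lower for 6 of the 8 past the filter (median -0.53), where 50.0% of all genes were lower. Of these, 4 were lower by more than their spread. The list joins 2 cell types, of which plasma cells also secrete heavily. The summed intensity of these markers was 14105 (control) and 7788 (methionine-deficient). The part of these markers was not tested either. Duct markers were higher in 3 of 3 cases past the filter (1351 and 1766 summed), and stromal and endothelial markers in 5 of 5 (9274 and 10824). The 6 islet and 6 macrophage markers were higher in 3 each (173417 and 181199, and 5995 and 7548). By more than their spread 2 duct, 1 stromal or endothelial, 2 islet and 2 macrophage markers were higher, where 17.1% of all genes were. By that measure 1 islet marker was lower. The other probe sets of Cdh5 and Col3a1 were lower, at -0.50 and -0.06, and that of Col1a2 was higher, at 1.34. Pnlip was not analysed here. No marker was at 0 in either pool among those past the filter, which the filter on level all but ensures. The signal of the 3′ over the 5′ control probe set, which rises as RNA degrades, was 1.46 (control) and 1.76 (methionine-deficient) for Actb, and 0.973 and 1.11 for Gapdh. Its part in the results was not tested either.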

How the data were processed

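Biotin-labelled cRNA of 2 pooled pancreas samples was put on Affymetrix arrays, per the labels' protocols. The authors deposited a linear intensity per probe set. The software and normalization behind it are not stated in those labels. With 2% of values trimmed from either tail, both arrays had a mean of 500.003, so the values appear scaled to one target and a difference in total signal could not be measured. Symbols came from the 2016 platform annotation, updated through gene identifiers: 34945 probe sets had 1 symbol, 932 several and 9160 none, besides 64 array controls. Values were taken as log2(intensity + 1) without rescaling, with 1 probe set per gene (the highest mean level) and a filter at the median of probe sets (intensity 151). The probe-set spread came from pairs of probe sets of 1 gene in the same of 5 level bins, scaled by 1.4826 times the median absolute deviation. No test was run, since n = 1 per group. The members and lists were chosen with earlier results of these data known. Every member may be named, with the 3 lowest and 3 highest of the further list. The steps were tested on simulated data. Computation used Python 3.11.15, numpy 2.4.6, pandas 2.3.3 and statsmodels 0.14.6. Alternatives were other scalings (array median, quantile, loess, poly-A spike-ins), a pseudocount of 16, other filters and averaging a gene's probe sets. Further alternatives were dropping probe sets with an x, s or a suffix in their identifier, and 1.5-fold and 3-fold sizes. Added after seeing the data were the brightest level bin alone and counting shared probe sets. The number of arrays limits the precision.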

Additional observations from a re-analysis of the deposited data

Results flagged for a closer look

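Outside the main measurement, 3 member probe sets that were not used for their gene's value read at least 2-fold higher in the methionine-deficient pool. All lay below the level filter (intensity 151), where such differences are common: of the 22518 probe sets below it, 29.4% lay above and 26.9% lay below the control value by 2-fold or more. A Tmed5 probe set read 13.9 (control) and 79.9 (methionine-deficient), a log2 difference of 2.44. A Sec24c probe set read 35.9 and 133 (1.86), and a Sec24a probe set 7.32 and 16.01 (1.03). The brightest probe sets of these genes had log2 differences of 0.10, -0.42 and -0.19. In the other direction, unused probe sets of Arf1 (69.2 and 32.0, log2 difference -1.09, below the filter) and of Copz1 (419 and 145, -1.52, past the filter) were at least 2-fold lower.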

How the results depend on the processing

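No paired analysis was possible because each group is 1 array. The medians of all members, of the ER exit coat, of the COPI coat, of the cargo receptors and of the SNAREs and tethers stayed below 0 under every alternative run. Scaling to the 27 poly-A spike-in probe sets, whose own median was 0.18, moved the median of all genes to -0.18, and with it the members to -0.29, the ER exit coat to -0.39, the COPI coat to -0.27, the cargo receptors to -0.25, the SNAREs and tethers to -0.28 and the further list to -0.21; this scaling subtracts the same amount from every gene, so it cannot change the gap between the coats. The further list turned to 0.011 with the filter at the 75th percentile; the cause was not tested. The ER exit median ranged from -0.39 to -0.13 and the gap between the coats from -0.14 to -0.02, the latter with the mean over probe sets, which gives dim probe sets the same weight. With that mean 9 of 42 members changed sign. Genes past 2-fold numbered 791, with 4325 without a level filter, 90 at the 75th percentile, 2302 at 1.5-fold and 215 at 3-fold. Members past these sizes numbered 0, with 2 at 1.5-fold. When probe sets with an x, s or a suffix were dropped, 1 member passed 2-fold, Copz1. That setting left out its brightest probe set (-0.20) and read the dimmer one (419 and 145, -1.52). Of the genes past 2-fold 459 were higher and 332 lower, against 294 and 517 with the spike-in scaling and 396 and 376 with array medians.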
